A study of Homo sapiens with 2 samples.

Results

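The NF-kB, chemokine and cytokine genes are a set of 48 named genes of inflammatory signalling, chosen by name from the 58174 genes that both TPM tables list. They were examined in PLC-8024 cells, a human hepatocellular carcinoma (HCC) cell line, with and without forced expression of GDF1, a secreted ligand of the TGF-β superfamily. The data comprised 1 library of control cells (PLC-8024-CTR, below "control cells") and 1 library of cells made to overexpress GDF1 (PLC-8024-GDF1, below "GDF1 cells"). The study's methods describe GDF1 delivery by lentivirus with puromycin selection and culture in serum-containing medium, and its text gives a control vector for the control cells. The sources used here do not say whether either line was a single clone, and the methods for these libraries name no inflammatory stimulus. All 48 genes were found, each by 1 identifier. Of these, 40 reached 1 TPM (an abundance scaled by transcript length and by the library total) in at least 1 library, and they are the genes described below. TPM keeps no read depth, so no counting error can be given, and with 1 library on each side the differences could not be set against replicates and no test was made.

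NF-kB is a family of dimeric transcription factors that inhibitor proteins (IkB) hold in the cytoplasm. Signals from TNF, IL-1 or Toll-like receptors pass through TRAF adaptors to the IkB kinase (IKK) complex, which marks IkB for destruction and frees NF-kB to switch on chemokine, adhesion and survival genes, among them genes for its own inhibitors. In the liver, NF-kB acts beside the IL-6 pathway, in which IL-6 binds its receptor IL6R and the shared signal transducer gp130 (IL6ST) and activates STAT3, the route to the acute-phase proteins that hepatocytes secrete.

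Each change is the log2 ratio of TPM + 1 in GDF1 cells to TPM + 1 in control cells, a scale on which the pseudocount of 1 makes the change of low genes smaller. A gene is said to rise or fall only where this log2 change passed 1 in size, that is 2-fold on that scale. Of the 40 genes, 1 rose, 8 fell and 31 stayed within 2-fold. The gene that rose was LCN2, and the 8 that fell were IL6R, IL1R1, IL6ST, IL1RN, LIF, IL18, CCL20 and CXCL16. On GRCh37 (hg19), the 8 genes span IL6R at chr1:154377669-154441926, IL1R1 at chr2:102681004-102796334, IL6ST at chr5:55230923-55290850, IL1RN at chr2:113856892-113891593, LIF at chr22:30636442-30642748, IL18 at chr11:112013976-112034819, CCL20 at chr2:228670455-228682280 and CXCL16 at chr17:4636828-4643223. Among all 14929 genes at 1 TPM or more, 4.82% rose and 9.61% fell, so the 2.5% of these genes that rose was below and the 20% that fell above the share over all genes. Past 4-fold, 1 of the 40 rose and 4 fell, where 0.697% of all genes rose and 1.27% fell. The median log2 change was -0.27, close to the -0.20 of all genes at 1 TPM or more.

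The split of rises and falls depended on how the libraries were scaled. When the TPM of GDF1 cells was multiplied by 1.15, which sets the median log2 ratio of all genes with at least 5 TPM to 0, 1 of the 40 rose and 5 fell, beside 6.97% and 6.85% of all genes. This rescaling raised the median of all genes by 0.18 on the log2 scale. LCN2, IL6R, IL1R1, IL6ST, IL1RN and LIF stayed past 2-fold under it, whereas IL18, CCL20 and CXCL16 did not. The members nearest to the threshold inside it were SAA2 (0.79), CXCL3 (-0.79) and TNFRSF1B (-0.81), and the nearest outside were CXCL16 (-1.04), CCL20 (-1.06) and IL18 (-1.13).

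**Figure D1:**
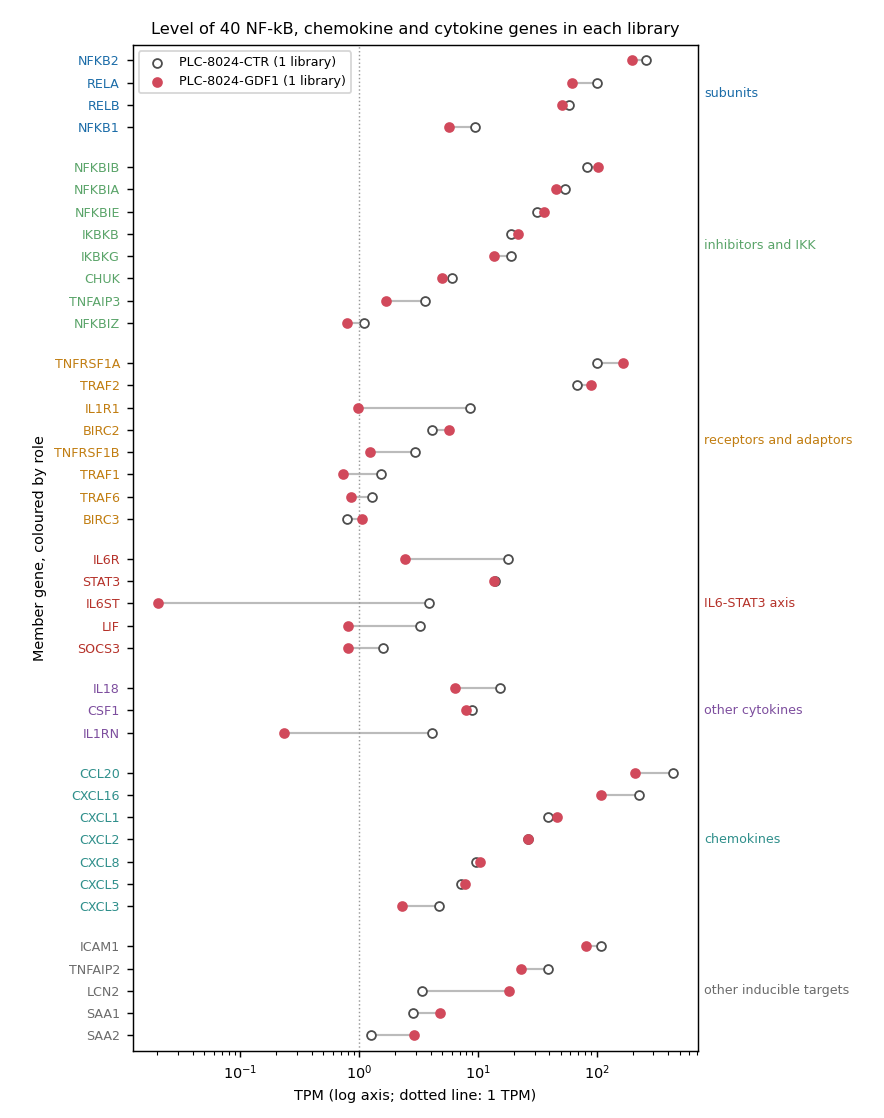
Level of the 40 genes at 1 TPM or more in control cells (open circles) and GDF1 cells (filled circles), 1 library each, on a log axis of TPM and grouped by role. The longest lines are those of IL6ST (3.90 to 0.020 TPM) and IL1RN (4.11 to 0.23 TPM), while the circles of CXCL2 (26.3 TPM in both) and STAT3 (13.9 and 13.6 TPM) nearly coincide.

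The sequences just upstream of some of these genes were examined, because kB sites are the DNA elements that NF-kB binds. RefSeq promoter windows on GRCh38.p14, from 250 bases before to 50 bases after each start site, were at hand for 37 of the 48 genes, in 55 windows, since some genes have several start sites. They were searched on both strands for the degenerate kB consensus and for the 9-base core GGAATTTCC, which often lies inside a consensus match. The consensus was present in 34.5% of the 55 windows and in 11.3% of all 35116 windows of that length, and the core in 21.8% and 0.461%. Many of these genes are textbook NF-kB targets and were chosen by name. The core was chosen after values had been seen, so its share in these windows is a description and no test. A match to letters shows no binding. Below are the 250 bases before the start site of LCN2, the 1 gene that rose, of CCL20, the most abundant of the 10 chemokines, and of IL6R, with the lowest log2 change, beside CXCL1, CXCL2 and CXCL8, chemokines that stayed within 2-fold. They are written 5′ to 3′ along the gene's strand, with matches to either motif in capitals. LCN2 lies at chr9:128149203-128149452 (plus strand), CCL20 at chr2:227813592-227813841 (plus), IL6R at chr1:154405093-154405342 (plus), CXCL1 at chr4:73869143-73869392 (plus), CXCL2 at chr4:74099196-74099445 (minus) and CXCL8 at chr4:73740319-73740568 (plus).
LCN2: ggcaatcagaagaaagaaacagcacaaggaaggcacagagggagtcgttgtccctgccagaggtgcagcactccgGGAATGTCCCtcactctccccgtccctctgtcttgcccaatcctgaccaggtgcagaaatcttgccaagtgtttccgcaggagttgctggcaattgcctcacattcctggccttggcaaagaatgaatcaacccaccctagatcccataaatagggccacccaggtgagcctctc
CCL20: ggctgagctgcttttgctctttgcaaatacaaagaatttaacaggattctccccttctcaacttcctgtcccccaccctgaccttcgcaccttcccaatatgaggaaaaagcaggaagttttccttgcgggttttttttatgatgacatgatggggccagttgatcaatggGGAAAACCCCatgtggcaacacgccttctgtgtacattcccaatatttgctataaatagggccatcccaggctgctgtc
IL6R: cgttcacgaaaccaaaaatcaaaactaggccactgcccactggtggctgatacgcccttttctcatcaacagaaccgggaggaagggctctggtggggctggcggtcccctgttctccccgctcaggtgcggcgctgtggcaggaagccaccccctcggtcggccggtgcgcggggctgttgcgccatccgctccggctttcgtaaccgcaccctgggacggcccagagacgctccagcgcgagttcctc
CXCL1: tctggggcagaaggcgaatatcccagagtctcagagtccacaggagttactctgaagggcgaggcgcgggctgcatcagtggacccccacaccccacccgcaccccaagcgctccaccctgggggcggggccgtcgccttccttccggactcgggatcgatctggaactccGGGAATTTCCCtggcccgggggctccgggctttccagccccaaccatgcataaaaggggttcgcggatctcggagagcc
CXCL2: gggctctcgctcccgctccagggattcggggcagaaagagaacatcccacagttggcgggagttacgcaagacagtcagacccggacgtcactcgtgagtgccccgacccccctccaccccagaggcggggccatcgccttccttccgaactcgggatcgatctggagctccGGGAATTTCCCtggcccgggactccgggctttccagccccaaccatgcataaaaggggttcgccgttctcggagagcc
CXCL8: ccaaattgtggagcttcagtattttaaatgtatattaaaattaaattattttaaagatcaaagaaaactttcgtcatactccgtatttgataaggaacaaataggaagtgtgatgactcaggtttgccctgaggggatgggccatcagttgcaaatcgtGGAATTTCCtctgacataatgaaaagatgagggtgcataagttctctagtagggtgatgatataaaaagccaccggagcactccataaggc

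The match in LCN2 began 175 bases before the start site and that in CCL20 79 bases before it, both on the opposite strand. CXCL1 and CXCL2 carried the same 11 letters, GGGAATTTCCC, which match on both strands, 79 and 78 bases before their start sites. CXCL3 had consensus matches on both strands from 79 bases and CXCL5 from 91 bases before its start. CXCL8 held the core alone, 91 bases before its start, and IL6R held neither motif in its window. Of the genes with a window, the 1 that rose held a match, as did 2 of the 5 that fell (CCL20 and IL6ST), 13 of the 25 within 2-fold and 3 of the 6 under 1 TPM. The windows of IL6R, IL1R1 and IL1RN, which also fell, held none, and LIF, IL18 and CXCL16, which fell too, had no window at hand. Counted by gene, 51.4% of the 37 held either motif in at least 1 window. Counted by window, 38.2% of the 55 held either motif, beside 11.5% of all windows. The log2 changes of these 5 chemokine genes were 0.25 for CXCL1, 0.00 for CXCL2, -0.79 for CXCL3, 0.10 for CXCL5 and 0.10 for CXCL8.

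**Figure D2:**
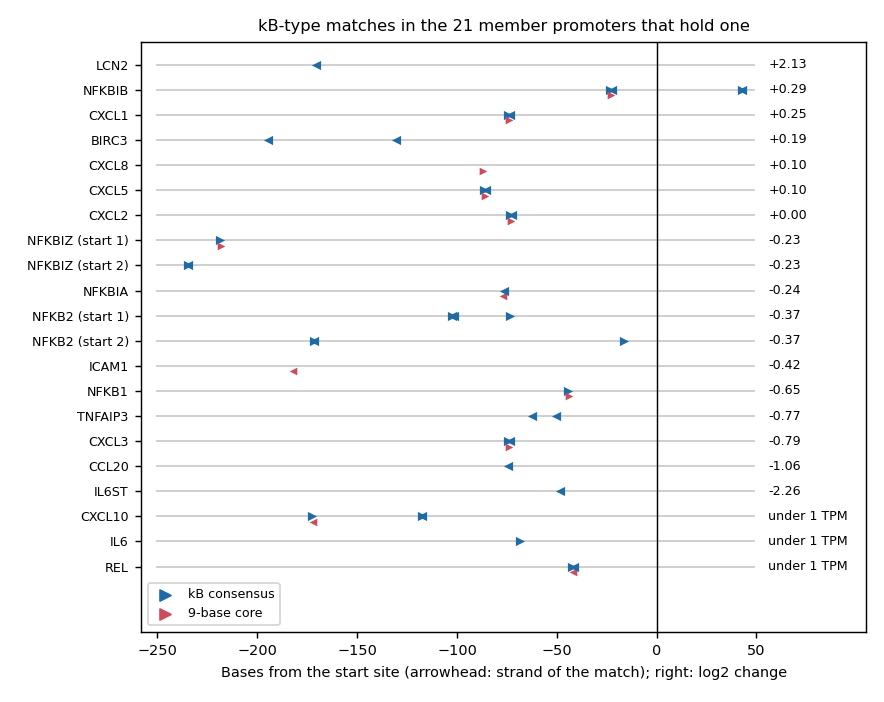
Position of kB consensus matches (blue) and of the 9-base core (red) from the start site in the 21 member windows that held one, with arrowheads for the strand of the match. Values on the right are log2 changes, from 2.13 for LCN2 to -2.26 for IL6ST, and the matches of CXCL1, CXCL2, CXCL3, CXCL5 and CXCL8 begin between 91 and 77 bases before the start.

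The subunits of NF-kB itself were examined first among the expression values. NFKB2, which encodes p100, the precursor of p52, was the most abundant at 257.6 TPM in control cells and 199.7 TPM in GDF1 cells. RELA, the transactivating p65 subunit of the canonical dimer, was listed at 99.8 and 62.5 TPM, a log2 change of -0.67. RELB, the partner of p52 in the non-canonical dimer, was listed at 57.9 and 51.3 TPM. NFKB1, which encodes p105 and p50, stood far lower at 9.42 and 5.66 TPM, with a log2 change of -0.65. All 4 had lower TPM in GDF1 cells, as did 9443 of the 14929 genes at 1 TPM or more, and all 4 stayed within 2-fold. With rescaled TPM the change of RELB turned to 0.03. REL, the haematopoietic family member, was under 1 TPM in both libraries. In both libraries the order was NFKB2, RELA, RELB, NFKB1.

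The 8 genes of the inhibitors and the IKK complex held no member past 2-fold. Over all genes 4.82% rose and 9.61% fell, and 8 genes are too few to weigh against these shares. NFKBIA, the IkB protein that NF-kB induces in its classical feedback loop, was listed at 53.9 TPM in control cells and 45.5 TPM in GDF1 cells. NFKBIB was listed at 83.4 and 102.2 TPM and NFKBIE at 31.1 and 36.1 TPM. These 2 IkB genes had higher TPM in GDF1 cells while NFKBIA had lower TPM, all by a log2 change under 0.3 in size. The kinase subunits were listed at 19.1 and 21.7 TPM for IKBKB, at 6.03 and 5.01 TPM for CHUK, and at 18.8 and 13.7 TPM for IKBKG, the regulatory subunit NEMO. IKBKG shares 23.4% of the 100-base windows of its longest transcript with the pseudogene IKBKGP1, so reads could be split between them, and the added TPM of the pair had a log2 change of -0.27. TNFAIP3, the deubiquitinase A20 that shuts the pathway off and is itself an NF-kB target, was low at 3.57 and 1.69 TPM. Its log2 change was -0.77, but the plain TPM ratio (-1.08 on the log2 scale) passed 2-fold. NFKBIZ, an atypical nuclear IkB, was listed at 1.10 and 0.80 TPM. As a sum, the 8 genes changed from 217.1 to 226.7 TPM.

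Among the 8 receptors and adaptors, IL1R1 fell (12.5%, beside 9.61% of all genes) and the other 7 stayed within 2-fold. TNFRSF1A, the TNF receptor found on most cells, was listed at 99.8 TPM in control cells and 166.2 TPM in GDF1 cells, a 1.66-fold higher plain TPM and a log2 change of 0.73. TNFRSF1B, another TNF receptor, was low, at 2.95 and 1.25 TPM (-0.81). IL1R1, the signalling receptor for IL-1, fell from 8.63 to 0.98 TPM (log2 change -2.28), an 8.80-fold lower plain TPM. The receptor genes thus had opposite signs, with TNFRSF1A higher and IL1R1 and TNFRSF1B lower in GDF1 cells. The adaptor TRAF2, which carries TNF receptor signals, was listed at 68.7 and 88.6 TPM. TRAF6, which carries IL-1 and Toll-like receptor signals, was listed at only 1.28 and 0.86 TPM, and TRAF1 at 1.52 and 0.73 TPM. The ubiquitin ligases of the TNF receptor complex were listed at 4.13 and 5.71 TPM for BIRC2 and at 0.79 and 1.05 TPM for BIRC3. Over the 8 genes the median log2 change came to -0.05.

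The IL-6 axis held 3 of the 8 falls, among them the lowest log2 change. They made up 60% of its 5 genes at 1 TPM or more, beside 9.61% of all genes, in a group too small to weigh. IL6R, the ligand-binding receptor chain, fell from 18.04 to 2.45 TPM (log2 change -2.47), a 7.37-fold lower plain TPM. It ranked 97 from the bottom among the 14929 genes at 1 TPM or more. IL6ST, the gp130 chain that most receptors of the IL-6 family share, fell from 3.90 to 0.020 TPM (log2 change -2.26). Its plain ratio rests on a value near 0 and is not given as a fold. IL6ST overlaps a pseudogene (AC016596.1) on the opposite strand, listed at 144.8 and 156.9 TPM. LIF, a cytokine that signals through gp130, fell from 3.25 to 0.81 TPM (-1.23). The receptor chains and LIF were thus all lower in GDF1 cells, and IL6R stayed past 4-fold with rescaled TPM (-2.32) and with the GC trend removed (-2.29). STAT3, the transcription factor downstream, stood at 13.9 and 13.6 TPM, a log2 change of -0.03 that turned to 0.17 with rescaled TPM. SOCS3, the feedback inhibitor that STAT3 induces, was low at 1.58 and 0.81 TPM. IL6 itself was listed at 0.0001 TPM, the value that stands in place of 0, in both libraries. The 5 genes of this axis at 1 TPM or more had a median log2 change of -1.23, beside -0.20 over all genes. IL6ST and LIF, 2 of the 3 that fell, were under 5 TPM in both libraries, where the unknown depth matters most.

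Other cytokines and their antagonists followed. IL1RN, the secreted antagonist that blocks IL1R1, fell from 4.11 to 0.23 TPM (-2.05). IL18, an IL-1 family cytokine made by epithelial cells, fell from 15.2 to 6.39 TPM (-1.13). CSF1, the growth factor of macrophages, was listed at 9.004 and 7.95 TPM. IL1RN and IL1R1 both lie in the IL-1 pathway and both fell, while its ligand IL1B was listed at 0.0001 TPM in both libraries. TNF was listed at 0.044 and 0.29 TPM, under 1 TPM in both. The fall of IL18 did not hold under other scalings, with -0.95 for rescaled TPM and -0.71 with the GC trend removed. IL18 overlaps SDHD on the opposite strand, and SDHD, a subunit of respiratory complex II, was listed at 2.09 TPM in control cells and at 0.0001 TPM in GDF1 cells. A value of 0.0001 is therefore also given to a gene that cells in general use, and is read here only as listed at 0.

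Chemokine transcripts were abundant in PLC-8024 cells and came mostly from a pair of genes. CCL20, which attracts cells bearing CCR6, was listed at 435.3 TPM in control cells and 208.3 TPM in GDF1 cells, a log2 change of -1.06. CXCL16, a membrane-anchored chemokine and the ligand of CXCR6, was listed at 224.9 and 108.7 TPM, a log2 change of -1.04. CCL20 lay at percentile 97.9 and CXCL16 at percentile 95.8 of levels in control cells among genes at 1 TPM or more. Both fell by close to the same factor, 2.09-fold and 2.07-fold lower in plain TPM, and neither passed 2-fold with rescaled TPM (-0.85 and -0.84) or with the GC trend removed (-0.62 and -0.99). Together they made up 88.4% of the TPM of the 10 chemokine genes in control cells and 77.2% in GDF1 cells. The gene span of CXCL16 overlaps those of ZMYND15 and MED11 on the opposite strand. Reads from a shared stretch could not be told apart if strand was not used, and how far exons overlap was not tested.

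The 5 neutrophil-attracting chemokines of the CXCR2 group all stayed within 2-fold. They are too few to weigh against the 4.82% of all genes that rose and the 9.61% that fell. CXCL1 was listed at 38.7 and 46.3 TPM, CXCL2 at 26.3 TPM in both libraries, CXCL8 at 9.62 and 10.4 TPM, and CXCL5 at 7.14 and 7.74 TPM. The 4 genes had log2 changes from 0.00 to 0.25 and none was lower in GDF1 cells. CXCL3 differed from them, with 4.70 and 2.29 TPM and a log2 change of -0.79. These 5 genes lie within 359 kb of one another on chromosome 4 of GRCh37 (74606236 to 74964913), and their added TPM changed from 86.5 to 93.1. ALB and AFP, the hepatocyte and fetal liver plasma protein genes, lie 319 and 284 kb upstream of CXCL8 and both fell, with log2 changes of -1.18 and -1.59. By qPCR in PLC-8024 cells, the study reports that GDF1 raised liver progenitor markers, a panel in which it counts AFP. It also reports lower hepatic markers, among them ALB, and adds western blots, staining of xenograft tumours, coculture and recombinant GDF1 protein. The fall of AFP in this pair of libraries, 1 on each side and of RNA only, runs the other way, while that of ALB runs the same way. CXCL10, an interferon-induced chemokine, was listed at 0.0001 TPM in both libraries, and CCL2 and CCL5 were listed at 0.0001 TPM in control cells and at 0.060 and 0.48 TPM in GDF1 cells, under 1 TPM.

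LCN2 was the 1 member that rose. It encodes lipocalin 2, an iron-siderophore binding protein of innate defence that NF-kB and IL-1 are known to induce in epithelia, and lies at chr9:130911350-130915732 of GRCh37. It was listed at 3.39 TPM in control cells and 18.3 TPM in GDF1 cells, a log2 change of 2.13 and a 5.38-fold higher plain TPM. It ranked 86 from the top among the 14929 genes, and kept its rise with rescaled TPM (2.33) and with the GC trend removed (2.20). SAA1 and SAA2, acute-phase apolipoproteins, were listed at 2.85 and 4.82 TPM and at 1.25 and 2.90 TPM. Both were higher in GDF1 cells but within 2-fold on the scale used, with log2 changes of 0.60 and 0.79, and SAA2 passed 2-fold on the plain TPM ratio (1.21). They share 10.8% and 18.2% of their 100-base windows with each other or with the readthrough gene SAA2-SAA4, and reads could be split among them. The added TPM of SAA1 and SAA2 changed from 4.10 to 7.72, whereas that of SAA2 and SAA2-SAA4 changed from 10.3 to 6.69, so the direction at SAA2 turned with the gene it was added to. ICAM1, the adhesion molecule that leukocytes bind, was abundant at 108.0 and 80.6 TPM. TNFAIP2, a gene named for its induction by TNF, was listed at 38.8 and 23.2 TPM, a log2 change of -0.72. CRP was listed at 0.0001 TPM in both libraries.

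**Figure D3:**
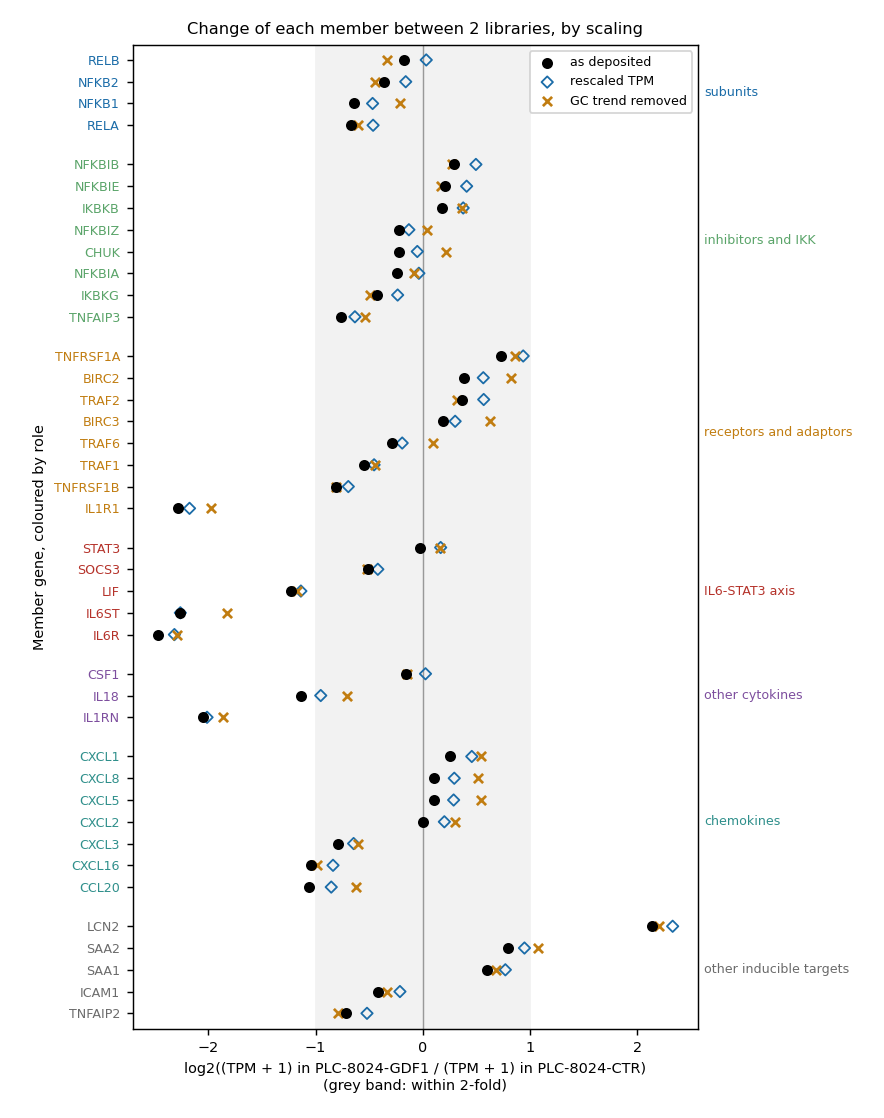
Log2 change of each of the 40 genes between the 2 libraries, grouped by role, as deposited (black), with rescaled TPM (blue diamonds) and with the GC trend removed (orange crosses). LCN2 lies right of the grey 2-fold band under all 3, and IL6R, IL6ST, IL1R1, IL1RN and LIF lie left of it under all 3, while CCL20, CXCL16 and IL18 move inside it.

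Members that fell were found at all levels. Of the 13 whose higher library was from 1 to 5 TPM, 3 fell, and of the 17 from 5 to 50 TPM, 1 rose and 3 fell. Of the 10 at 50 TPM or more, CCL20 and CXCL16 fell. Over all genes the shares that fell in these bands were 7.42%, 12.2% and 7.29%. The pseudocount weighs on the first band. With plain TPM ratios, 2 of the 40 genes rose (LCN2 and SAA2) and 12 fell, the 8 named above with CXCL3, TNFAIP3, TNFRSF1B and TRAF1, beside 7.86% and 16.1% of all genes.

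GC content moved with the changes of all genes and was set beside those of the members. Among all genes at 1 TPM or more with a GC value, the median log2 change went from -0.45 in the GC-poorest of 5 equal groups to 0.11 in the GC-richest, and the share that fell from 12.9% to 5.12%. The 8 members that fell had a median GC content of 47.5% in their longest transcript (from 35.5% for CCL20 to 57.4% for CXCL16), against 52.1% for the 31 members within 2-fold. None of the 10 members in the GC-richest group passed 2-fold, beside 8.88% of all genes in that group that rose and 5.12% that fell. With 10 members this is too few to weigh. With the lowess trend on GC content subtracted, 2 of the 40 genes rose (LCN2 and SAA2) and 5 fell (IL6R, IL1R1, IL1RN, IL6ST and LIF), beside 6.29% and 6.05% of all genes. The part of GC content in these changes beyond that was not tested.

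A further 111 genes of these pathways, taken from lists of gene names, were read for context. Of these, 81 reached 1 TPM, and 3 rose and 9 fell, 3.70% and 11.1%, near the shares over all genes, with a median log2 change of -0.35. Of the 34 NF-kB signalling genes among them, 33 stayed within 2-fold and 1 fell (2.94%). Over all genes at 1 TPM or more, 4.82% rose and 9.61% fell. The exception was TNFRSF12A, the receptor of TWEAK, which fell from 169.7 to 60.3 TPM. Of 13 other NF-kB targets, IER3, an early-response survival gene, fell from 651.9 to 310.4 TPM (-1.07), and 12 stayed within 2-fold. The 7.69% that fell was near the share over all genes. With rescaled TPM IER3 did not pass 2-fold (-0.86).

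In the wider IL-6 family, the gp130 partner OSMR, a receptor chain for oncostatin M, fell from 1.79 to 0.020 TPM, and CLCF1, a gp130 cytokine, from 22.3 to 10.6 TPM (-1.01). LIFR, the receptor chain for LIF, was listed at 0.0001 TPM in both libraries, and IL11RA, the IL-11 receptor chain, at 25.6 and 30.4 TPM. JAK1, a kinase bound to gp130, was listed at 20.6 and 18.2 TPM. Receptor chains of this family thus did not move as one, since IL6R, IL6ST and OSMR fell and IL11RA stayed within 2-fold.

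Of 12 other chemokine, cytokine and growth factor genes at 1 TPM or more, 2 rose and 5 fell, 16.7% and 41.7% beside 4.82% and 9.61% of all genes, and their median log2 change was 0.09. IL32, a cytokine that NF-kB induces, rose from 312.2 to 797.8 TPM (1.35), and CX3CL1, a membrane-anchored chemokine, from 0.88 to 4.06 TPM (1.43). Those that fell were VEGFA (54.5 to 9.02 TPM), the angiogenic growth factor, CXCL12 (7.31 to 1.25 TPM), the ligand of CXCR4, CCL15 (21.5 to 6.06 TPM), a chemokine expressed in liver, IL23A (5.46 to 2.07 TPM), and GDF15 (4696 to 2294 TPM), a stress-induced relative of GDF1. IL32 and VEGFA stayed past 2-fold with rescaled TPM (1.56 and -2.28), whereas GDF15, IL23A and CLCF1 did not (-0.83, -0.93 and -0.82). A further list held 12 genes put down as acute-phase by name, without a check that each responds so in human cells. Of these, A2M, the protease inhibitor alpha-2-macroglobulin, rose from 316.1 to 1424 TPM (2.17), and the other 11 stayed within 2-fold. Their signs were mixed, with the fibrinogen chain genes FGA at 467.6 and 911.1 TPM, FGB at 1991 and 1517 TPM and FGG at 967.2 and 755.2 TPM.

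**Figure D4:**
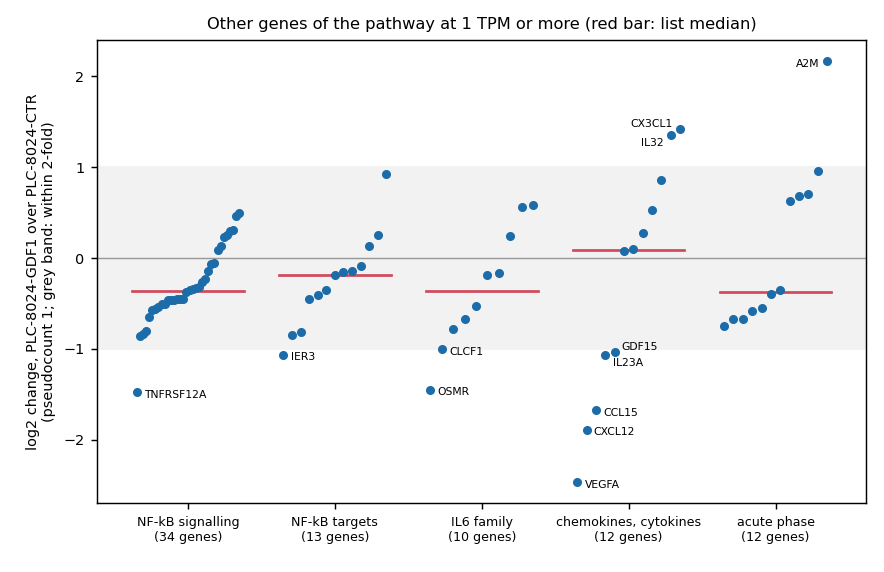
Log2 change of 81 other genes of these pathways at 1 TPM or more, in 5 lists, with the list median as a red bar and the genes past 2-fold named. Of the 34 NF-kB signalling genes only TNFRSF12A lies outside the grey 2-fold band, and A2M (2.17) and VEGFA (-2.47) lie farthest from it.

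Some facts of the whole pair of libraries bear on all of these values. The GDF1 entry was listed at 2.096 and 4.64 TPM, a log2 change of 0.87 that stayed within 2-fold. CERS1, whose annotated span holds GDF1, was listed at 13.3 and 9612 TPM. Whether reads of the introduced GDF1 were assigned to CERS1 was not tested. Of 10 hepatocyte and HCC markers, 10 reached 1 TPM in control cells and 9 in GDF1 cells. Of the 10, 6 fell, beside 9.61% of all genes at 1 TPM or more. The summed TPM of all 10 was 8541 and 6174, of which SERPINA1, within 2-fold, was listed at 5308 and 2915 TPM. KRT8 (1424 and 1777 TPM) and KRT18 (1005 and 1224 TPM) had higher TPM in GDF1 cells. Of 8 leukocyte markers, LYZ (298.0 and 213.5 TPM) and CD68 (33.1 and 13.2 TPM) reached 1 TPM, the sum over all 8 being 331.8 and 227.3 TPM, while the defining markers PTPRC and MS4A1 were listed at 0.0001 TPM in both. Of 4 endothelial markers, PECAM1 (23.2 and 22.2 TPM) reached 1 TPM and VWF and KDR were listed at 0.0001 TPM, with a sum of 23.5 and 22.4 TPM. Of 5 fibroblast markers, COL3A1 (3.22 and 1.23 TPM) reached it and COL1A2 and DCN were listed at 0.0001 TPM, with a sum of 3.80 and 2.59 TPM. In such bulk RNA, fewer cells that express a gene and less RNA per cell cannot be told apart.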

How the data were processed

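RNA-seq of control and GDF1-overexpressing PLC-8024 cells, 1 library each, was analysed as TPM. The authors filtered reads with Trimmomatic (version 0.36), aligned them to hg19 with HISAT2 (version 2.1.0) and estimated abundances with StringTie (version 1.3.3b), and they deposited 1 TPM value per gene for 58174 Ensembl identifiers, although the methods name a RefSeq annotation. The TPM sum to the same total in both libraries (999990 and 999995), whatever the depth. Values of 0.0001 stand in place of 0.

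Groups were taken from the genotype labels. The log2 change used a pseudocount of 1 and genes that reached 1 TPM in one library or both. No test was possible. Alternatives were a pseudocount of 0.1, plain ratios where both values were at least 0.01 TPM, a minimum of 5 TPM or none, rescaled TPM, and removal of a lowess trend (span 0.3) on GC content. Every member at 1 TPM or more and other pathway genes past 2-fold were named, with at most 10 in each direction. The members and lists were chosen with earlier results of these data known, and SDHD, IKBKGP1, AC016596.1, MED11, ZMYND15 and the readthrough gene SAA2-SAA4 after their values were seen. The core motif GGAATTTCC and the 6 promoters shown were also chosen then. Positions, GC content and 100-base windows were read from GENCODE v44 lifted to GRCh37, the hg19 build, with 55726 of the identifiers, and promoters from RefSeq (GRCh38.p14). Python 3.11.15, numpy 2.4.6, pandas 2.3.3, statsmodels 0.14.6 and matplotlib 3.10.9 were used.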

Additional observations from a re-analysis of the deposited data

How the results depend on the processing

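No paired analysis was possible because control and GDF1 cells gave 1 library each. A count was taken as stable within 1.5 times the reported one, a median within 0.1 on the log2 scale with the same sign, and a single gene where it kept its sign and its side of 2-fold. The alternatives for other pathway genes one by one were chosen after seeing the data. The 40 members gave 2 rises in place of 1 with a pseudocount of 0.1, with plain ratios and with the GC trend removed, and 5 falls in place of 8 with rescaled TPM, with the GC trend removed and with at least 5 TPM (27 members left). Their median of -0.27 became -0.39 with a pseudocount of 0.1, -0.39 with plain ratios and -0.14 with rescaled TPM. The other pathway genes gave 7 rises with a pseudocount of 0.1, 8 with plain ratios and 6 with rescaled TPM or the GC trend removed, in place of 3, and 5 falls with rescaled TPM in place of 9. Their median of -0.35 became -0.15 with rescaled TPM, -0.21 with the GC trend removed and -0.19 with no filter on low values. Over all genes, 720 rises became 1167 with a pseudocount of 0.1, 1163 with plain ratios, 471 with at least 5 TPM and 479 with protein-coding genes only, and 1434 falls became 2315, 2376 with plain ratios and 886 with the GC trend removed. Fewer genes were tested under the higher minimum and among protein-coding genes, and rescaling and GC removal centre the ratios by construction. The cause of the other differences was not tested. Of the 31 members within 2-fold, 3 changed sign with rescaled TPM (RELB, CSF1 and STAT3) and 4 with the GC trend removed (NFKBIZ, CHUK, TRAF6 and STAT3). The unknown depth limits genes of low TPM most.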

Other observations

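The following genes fall outside the lists and were picked after their values were seen. SAA4, the constitutive serum amyloid A gene beside SAA2, fell from 105.4 to 8.05 TPM (log2 change -3.56) in the same pair of libraries in which SAA1 and SAA2 had higher TPM in GDF1 cells, and the readthrough gene SAA2-SAA4 fell from 9.07 to 3.78 TPM (-1.07). Inside the span of the chromosome 4 chemokine genes, the platelet chemokine gene PF4 rose from 1.79 to 6.85 TPM (1.49), while CXCL1, CXCL2, CXCL3, CXCL5 and CXCL8 around it stayed within 2-fold. Within 500 kb downstream of that span, AREG, which encodes the EGF receptor ligand amphiregulin, fell from 196.4 to 62.9 TPM (-1.63), and EREG, which encodes epiregulin, was listed at 3.98 and 2.51 TPM (-0.51).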
